A study of Homo sapiens with 8 samples.

Results

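Metallothioneins are small, cysteine-rich proteins that bind zinc and copper and also hold toxic metals such as cadmium. When free zinc rises, the zinc-finger transcription factor MTF1 binds metal response elements, short motifs in the promoters of its targets, and raises the transcription of metallothionein genes and of SLC30A1, which encodes ZnT1, the zinc exporter of the plasma membrane. MT2A and several MT1 genes are also known to respond to glucocorticoids and oxidants. The level and the change of 8 genes of this system were examined in Ewing sarcoma cells: the metallothionein genes MT2A, MT1E, MT1F, MT1G, MT1M and MT1X, the sensor MTF1 and the exporter SLC30A1. They were taken by symbol from a matrix of 60332 genes, in which each of the 8 had 1 row.

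The libraries came from a pair of established Ewing sarcoma lines, RD-ES and SK-N-MC, each with 2 control and 2 eKD2 libraries, 8 libraries in all. In eKD2, a guide RNA brought dCas9-KRAB, a non-cutting Cas9 joined to a repressor domain, to DNA next to the GGAA repeat of the enhancer that drives LOXHD1. Per the labels the controls had been infected with dCas9-KRAB virus lacking a guide, whereas the paper names parental cells. A multiplicity of infection of 10, puromycin at 1 µg/ml for 3 days and use within 5 passages are listed for all groups, the controls included. No zinc, cadmium or glucocorticoid treatment is named for any group, so every value describes cells in ordinary medium. Each line stands for 1 tumor, and the paper calls the libraries of a group biological duplicates, while the labels do not say how S1 and S2 were grown.

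The knockdown could be seen in every library, with LOXHD1 between 21.2 and 21.4 FPKM in RD-ES control versus 1.02 and 1.04 in RD-ES eKD2 libraries, and between 159 and 169 in SK-N-MC control and 11.0 and 12.0 in SK-N-MC eKD2 libraries. FPKM is a read number divided by transcript length and library size, so levels can be set side by side between genes. ZNF10, whose KRAB domain is the one commonly joined to dCas9, was listed at 7.65 to 10.2 FPKM in the controls of both lines and at 49.0 to 65.1 in the eKD2 libraries. The guide and the amount of this signal therefore cannot be told apart in any eKD2 comparison. Whether the controls carried the same construct was not tested. All 10 Ewing sarcoma markers examined, among them CD99, NKX2-2 and NR0B1, were at 1 FPKM or more in every library of both lines, and the 3 skeletal muscle markers were below 1 FPKM. The depth, estimated from the steps of low FPKM values, lay between 7.49 and 30.0 M reads (M, mega) and was lowest in RD-ES eKD2 S1.

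The 6 metallothionein genes lie within 75.6 kb of chromosome 16 (GRCh37, chr16:56642496-56718108). In order along the chromosome they are MT2A (chr16:56642496-56643409), MT1E (chr16:56659387-56661024), MT1M (chr16:56666571-56667893), MT1F (chr16:56691643-56694610), MT1G (chr16:56700642-56701977) and MT1X (chr16:56716382-56718108). MT1G is on the minus strand and the others are on the plus strand. MTF1 (chr1:38275246-38325264) and SLC30A1 (chr1:211744910-211752503) are both on the minus strand of chromosome 1. The genes are near copies of each other, and short reads from one can match another. Of all stretches of 75 bases, the read length, in the representative transcript of MT1X, 36.1% occurred also in MT1G, the pseudogene MT1XP1 or the lncRNA ENSG00000259827, which overlaps MT1X. The share was 6.55% for MT1G, 1.64% for MT1E and 0 for MT2A, MT1F and MT1M, so the values of MT1X are the most uncertain in this respect. Only exact matches of the representative transcript were counted. A share of 0 therefore does not show that every read was assigned to the right gene.

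The promoters are shown because they hold the motif through which zinc acts on these genes. The RefSeq promoter table (GRCh38.p14) held 4 of the 8 genes: MT2A, MT1X, SLC30A1 and MTF1. Below are the 250 bases before the transcription start of the 3 in which a core of the metal response element was found, read 5′ to 3′ in the direction of the gene. Capitals mark the core, searched as TGCACNC and TGCGCNC on both strands. The windows are chr16:56608334-56608583 (plus strand) for MT2A, chr16:56682220-56682469 (plus strand) for MT1X and chr1:211579162-211579411 (minus strand) for SLC30A1.
MT2A: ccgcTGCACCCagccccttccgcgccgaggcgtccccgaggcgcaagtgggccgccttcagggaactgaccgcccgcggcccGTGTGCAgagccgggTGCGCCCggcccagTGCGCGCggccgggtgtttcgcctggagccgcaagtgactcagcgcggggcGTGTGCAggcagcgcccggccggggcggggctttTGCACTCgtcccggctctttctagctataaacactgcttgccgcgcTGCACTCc
MT1X: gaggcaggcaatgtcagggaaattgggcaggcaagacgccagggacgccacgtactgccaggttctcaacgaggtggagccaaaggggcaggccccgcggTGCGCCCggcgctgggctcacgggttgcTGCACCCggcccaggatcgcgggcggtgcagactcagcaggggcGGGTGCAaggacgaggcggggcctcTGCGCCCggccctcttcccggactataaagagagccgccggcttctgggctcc
SLC30A1: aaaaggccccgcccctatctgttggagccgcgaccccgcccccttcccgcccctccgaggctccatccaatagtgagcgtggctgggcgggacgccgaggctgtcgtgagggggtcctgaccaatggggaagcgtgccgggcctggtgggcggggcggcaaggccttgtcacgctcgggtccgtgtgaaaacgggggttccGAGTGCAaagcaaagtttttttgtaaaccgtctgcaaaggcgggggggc

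The MT2A window held 7 cores, 5 on the strand of the gene and 2 on the other. The MT1X window held 4 cores, 3 of them on the strand of the gene. SLC30A1 held 1, which starts 49 bases before the transcription start. No core was found in the window of MTF1 (chr1:37859593-37859842, minus strand), although its GC content of 70.0% was that of MT1X. Of 35116 promoters of the same length, 24.8% held 1 core or more, 0.370% held 4 or more and 0.0313% held 7 or more. One core, as in SLC30A1, is therefore common, and a match of letters does not show that MTF1 binds there.

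**Figure D1:**
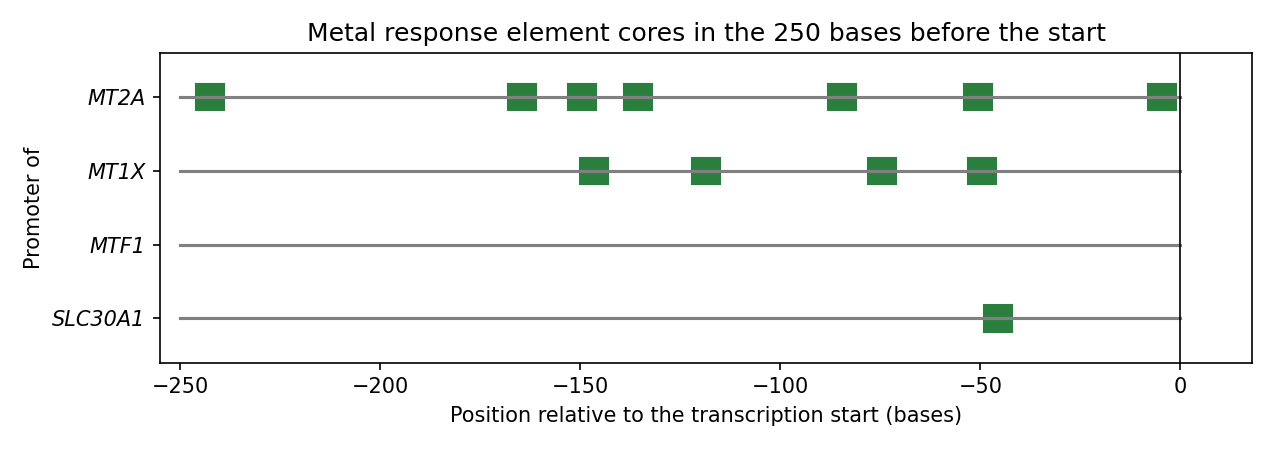
Cores of the metal response element (green boxes, each 7 bases wide) in the 250 bases before the transcription start of 4 genes, against the distance from the start in bases. MT2A has 7 cores spread over the window, MT1X has 4, SLC30A1 has 1 and MTF1 has none.

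In RD-ES, MT2A was the highest of the 8 genes and MT1X the second, and both were low in SK-N-MC. MT2A stood at 40.5 and 47.6 FPKM in the RD-ES control libraries and at 38.2 and 45.4 in RD-ES eKD2. In SK-N-MC it stood at 1.97 and 3.24 FPKM in control and 3.40 and 4.37 in eKD2 libraries. Every RD-ES library was thus above every SK-N-MC library, and MT2A ranked between 2943 and 3646 from the top among all genes in RD-ES versus between 11183 and 12825 in SK-N-MC.

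MT1X, the next most abundant isoform, measured 22.2 and 25.2 FPKM in RD-ES control, then 18.8 and 22.4 in RD-ES eKD2, 1.09 and 1.32 in SK-N-MC control and 2.33 and 2.96 in SK-N-MC eKD2 libraries. MT1F measured 12.9 and 14.6 FPKM in RD-ES control versus 6.25 and 17.1 in RD-ES eKD2, where its S1 and S2 libraries stood far apart. In SK-N-MC it was listed at 0.158 and 0 in control and at 0.201 and 0.190 in eKD2 libraries, each nonzero value being worth about 1 read. The lines did not overlap in any of these 3 genes, and the share of all genes whose lines separate was not counted.

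MT1G was found only in RD-ES, at 1.51 and 4.16 FPKM in control and 4.78 and 2.08 in eKD2 libraries, and was listed at 0 in all 4 SK-N-MC libraries. MT1M had the same pattern at a lower level, 0.492 and 0.484 FPKM in RD-ES control, then 0.852 and 0.772 in RD-ES eKD2 and 0 in every SK-N-MC library. MT1E was at 0.605 and 0.476 FPKM in RD-ES control, then 0 and 1.09 in RD-ES eKD2, 0 and 0 in SK-N-MC control and 0 and 0.314 in SK-N-MC eKD2 libraries. These MT1E and MT1M values rest on few reads, estimated from transcript length at 1.26 to 8.56 per library where above 0. After scaling by depth, the nonzero MT1E values stood at 1.00 or 2.00 times the smallest, so they may be as few as 1 or 2 reads. A value of 0 says that no read was assigned at this depth, not that the gene was silent. Of 16 further metallothionein genes and pseudogenes, 14 were listed and 11 were at 0 in all 8 libraries, among them MT1A, MT1B, MT1H, MT3 and MT4. MT3 and MT4 encode isoforms known from brain and from squamous epithelium. The 3 that were above 0 anywhere were pseudogenes, in 1 or 2 libraries each and at no more than 3.89 FPKM.

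The 6 metallothionein genes added up to 78.2 and 92.6 FPKM in RD-ES control, then 68.9 and 88.8 in RD-ES eKD2, 3.22 and 4.56 in SK-N-MC control and 5.93 and 7.83 in SK-N-MC eKD2 libraries. MT2A and MT1X made up 76.4% to 82.7% of that sum in RD-ES versus 93.6% to 100% in SK-N-MC. The ratio of MT1X to MT2A was 0.492 to 0.548 in RD-ES versus 0.408 to 0.685 in SK-N-MC, so the RD-ES range lay inside that of SK-N-MC. SK-N-MC eKD2 libraries, at 0.677 and 0.685, had the highest ratios and SK-N-MC control S2 the lowest.

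The sensor and the exporter were less far apart. MTF1 measured 10.5 and 12.1 FPKM in RD-ES control, then 9.61 and 14.2 in RD-ES eKD2, 3.48 and 4.05 in SK-N-MC control and 3.08 and 2.83 in SK-N-MC eKD2 libraries. SLC30A1 measured 7.25 and 7.69 FPKM in RD-ES control, then 9.93 and 8.36 in RD-ES eKD2, 3.53 and 3.40 in SK-N-MC control and 2.96 and 2.30 in SK-N-MC eKD2 libraries. In RD-ES control libraries the order of levels was thus MT2A, MT1X, MT1F, MTF1 and SLC30A1, with the other 3 genes below, and in RD-ES eKD2 libraries the ranges of MT1F, MTF1 and SLC30A1 overlapped. In SK-N-MC control libraries MTF1 and SLC30A1, whose ranges overlapped, stood above MT2A, and MT1X stood below it.

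**Figure D2:**
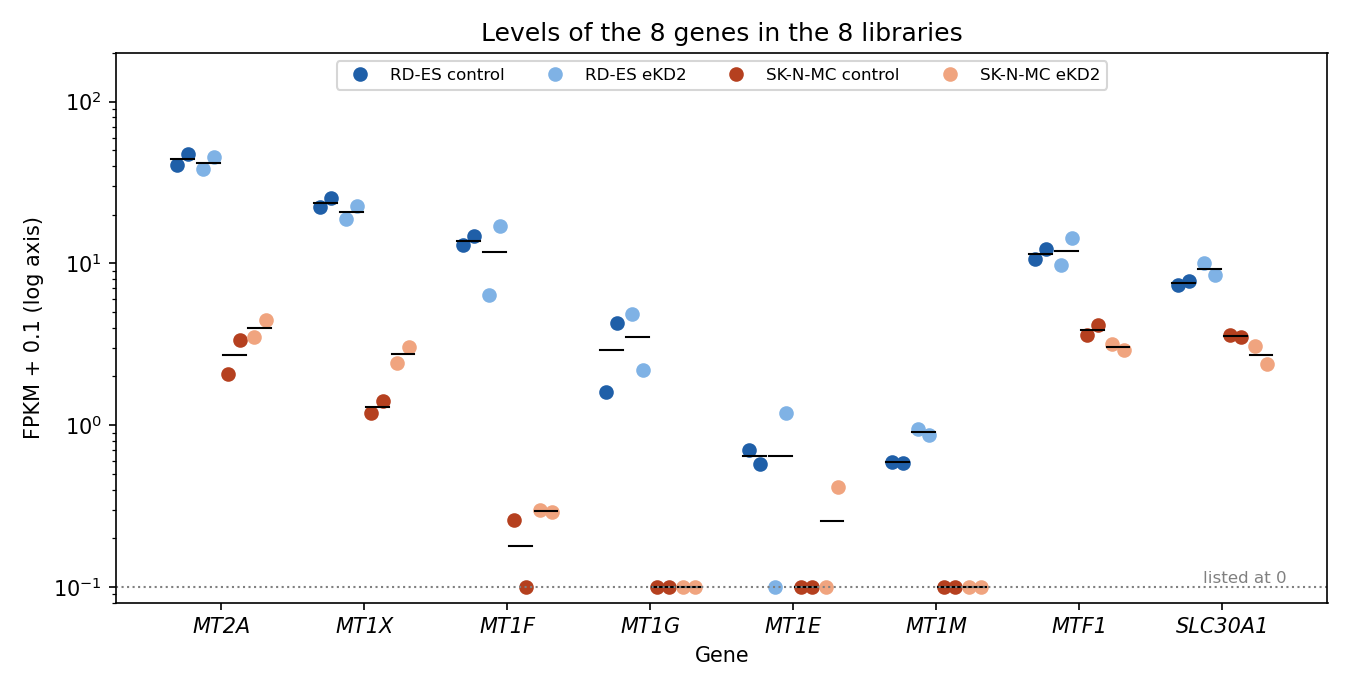
Levels of the 8 genes in each of the 8 libraries as FPKM + 0.1 on a log axis, with 1 point per library, S1 left of S2, black lines at the group means and a dotted line where a gene is listed at 0. The RD-ES points of MT2A, MT1X, MT1F, MT1G, MT1M, MTF1 and SLC30A1 lie above all SK-N-MC points, and those of MT1E overlap them.

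The difference between the lines was tested in the control libraries with limma on log2(FPKM + 1), over the 15175 genes whose mean reached 1 FPKM. Of the 8 genes, 6 passed this filter, and each of the 6 was lower in SK-N-MC control than in RD-ES control, while 26.4% of all genes tested were called lower. MT1F and MT1G passed through their RD-ES values alone and had to differ, so the count over the genes is no support in itself. On the log2(FPKM + 1) scale, which understates differences of low genes, MT2A was lower, with a log2 difference of -3.66 (SE 0.21, adjusted p 4.9e-05), with mean FPKM 16.9-fold higher in RD-ES (44.1 ± 5.03 against 2.61 ± 0.895, SD, n = 2 each). For MT1X the log2 difference was -3.49 (SE 0.14, adjusted p 1.8e-05) and the ratio of mean FPKM 19.7 (23.7 ± 2.16 against 1.20 ± 0.165, SD, n = 2 each). Among all genes tested, 0.929% had a log2 difference as low as that of MT2A or lower, and 1.07% as low as that of MT1X.

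MTF1 was lower in SK-N-MC control by a log2 difference of -1.37 (SE 0.19, adjusted p 0.0013), and its mean FPKM was 3.01-fold higher in RD-ES. SLC30A1 was lower by a log2 difference of -0.92 (SE 0.14, adjusted p 0.0018), or 2.16-fold higher mean FPKM in RD-ES. These differences were less rare, since 7.14% of genes had one as low as that of MTF1 and 12.8% as low as that of SLC30A1. MT1F and MT1G gave fitted log2 differences of -3.77 (adjusted p 5.1e-04) and -1.85 (adjusted p 0.012). With values at or near 0 in SK-N-MC these depend on the added 1 and are not fold sizes, and the call for MT1G was lost when SK-N-MC control S1 or S2 was left out (adjusted p 0.055 and 0.056).

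The same contrast in the eKD2 libraries, which rests on other libraries but on the same estimate of the spread and was added after the data were seen, gave log2 differences of -3.13 for MT2A, -2.57 for MT1X, -1.68 for MTF1 and -1.48 for SLC30A1, with adjusted p between 5.2e-05 and 6.2e-04. For MT1F and MT1G the differences were -3.26 and -2.08 (adjusted p 9.4e-04 and 0.0077). Both genes passed the filter through their RD-ES values alone, so they had to differ here too and add no support. In these libraries 28.1% of all genes were called lower in SK-N-MC. Mean FPKM was 10.8-fold higher in RD-ES for MT2A, 7.80-fold for MT1X, 4.02-fold for MTF1 and 3.47-fold for SLC30A1. The gap between the lines was therefore narrower for the metallothionein pair, and wider for the sensor and the exporter, in eKD2 than in control libraries, and the test of that change is the difference between the eKD2 effects given further on.

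Other genes also separated the lines. The summed level of 3 fibroblast markers was 5.10 to 6.62 FPKM in RD-ES versus 258 to 286 in SK-N-MC, with COL1A2 and DCN among them. Of 3 leukocyte markers PTPRC reached 1 FPKM only in SK-N-MC, with CD3E at 0 there, and the sum was at most 0.871 FPKM in RD-ES and at least 19.6 in SK-N-MC. In bulk RNA, fewer cells of a type and less RNA per cell cannot be told apart, and the part of these markers in the metallothionein difference was not tested. Within 500 kb of the cluster, chosen by position after the difference between the lines was known, 9 other protein-coding genes were tested, of which 5 were lower in SK-N-MC control, 2 were higher and 2 did not pass, while 26.4% of all genes were lower and 31.4% higher. Their log2 differences ran from -1.65 for NLRC5 to 1.08 for HERPUD1, with a median of -0.49 beside 0.065 for all genes. All 9 lay above the -3.66 of MT2A and the -3.49 of MT1X.

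**Figure D3:**
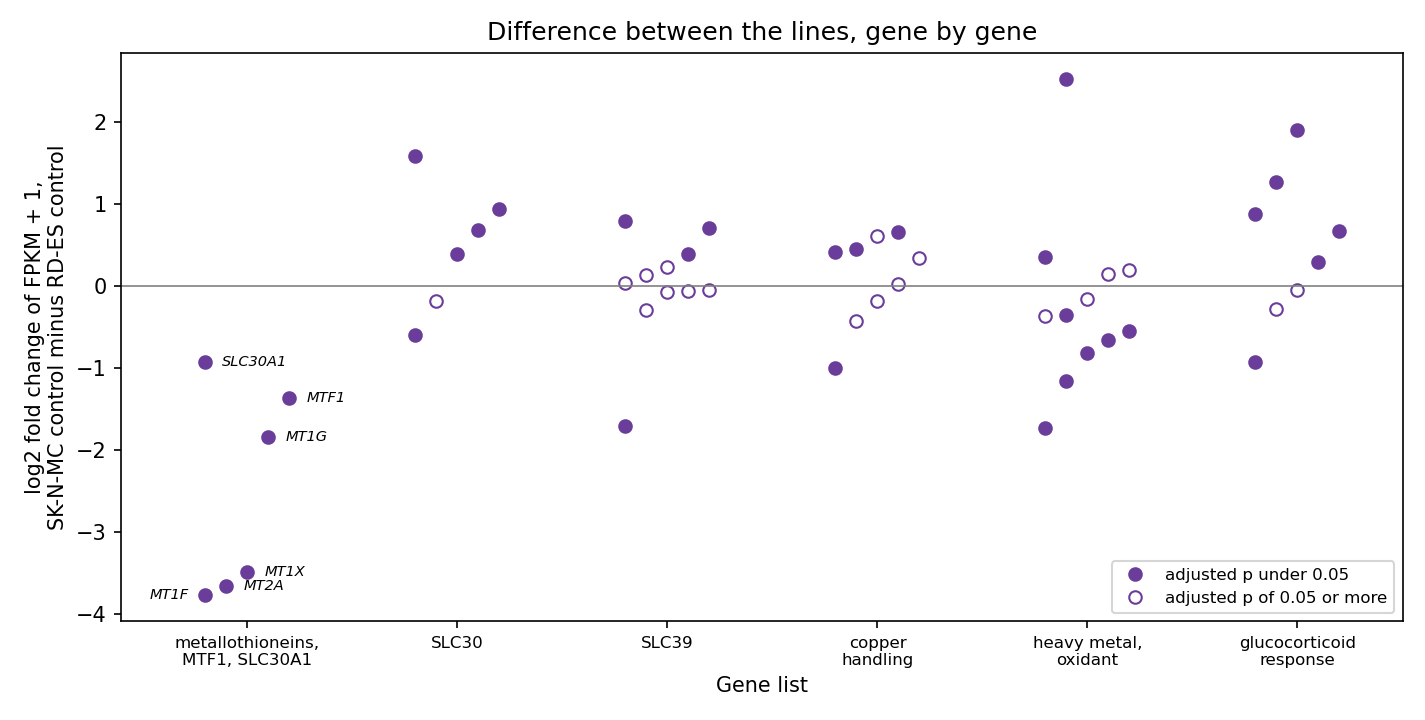
Log2 difference of FPKM + 1 between SK-N-MC control and RD-ES control for each tested gene of the metallothionein system and of 5 gene lists of metal, oxidant and glucocorticoid biology, with 1 point per gene and filled points at an adjusted p under 0.05. The metallothionein genes lie between -3.77 and -1.85, MTF1 at -1.37 and SLC30A1 at -0.92, and the 5 lists spread to both sides of 0.

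Knockdown of the LOXHD1 enhancer changed none of the 6 tested genes past the adjusted threshold in either line, and MT1E and MT1M were too low to be tested. In RD-ES, 0 of the 6 tested genes passed an adjusted p of 0.05 and 0 had an unadjusted p under 0.05, in a comparison where limma called 0.343% of all genes and where 12.3% had an unadjusted p under 0.05. MT2A differed by a log2 fold change of -0.075 between eKD2 and control (SE 0.21, adjusted p 0.92), and the groups overlapped. Its 95% confidence interval reached from 0.670-fold to 1.35-fold of FPKM + 1, so changes beyond about that size were not seen and smaller ones could not be resolved. MT1X differed by -0.20 (SE 0.14, adjusted p 0.62, interval 0.684-fold to 1.12-fold) and MTF1 by 0.046 (SE 0.19, adjusted p 0.96, interval 0.754-fold to 1.41-fold). MTF1 turned to -0.021 under median scaling and to -0.019 under quantile normalization.

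SLC30A1 in RD-ES had eKD2 at 9.93 and 8.36 FPKM over control at 7.25 and 7.69, a log2 fold change of 0.26 (SE 0.14, adjusted p 0.51). Its groups did not overlap, but with 2 libraries a group such a separation has a p of 0.333 in an exact permutation test. The share of all genes that separate was not counted. For MT1F the fold change was -0.36 (SE 0.40, adjusted p 0.75) and for MT1G 0.23 (SE 0.43, adjusted p 0.88). Both had S1 and S2 of a group further apart than the group means. For MT1F the low value was that of RD-ES eKD2 S1, the shallowest library, at roughly 10.5 reads, and without it the log2 fold change was 0.29. MT1G rested on an estimated 4.11 to 14.4 reads per RD-ES library, and its sign turned when RD-ES control S1 (-0.29) or RD-ES eKD2 S1 (-0.23) was left out. Leaving out single libraries moved MT2A between -0.20 and 0.047, MT1X between -0.32 and -0.074, MTF1 between -0.21 and 0.30 and SLC30A1 between 0.14 and 0.37.

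In SK-N-MC again 0 of the 6 tested genes passed the adjusted threshold, where limma called 0.323% of all genes. One of the 6, MT1X, had an unadjusted p under 0.05, as had 13% of all genes. Both eKD2 libraries of MT1X, at 2.33 and 2.96 FPKM, stood above the controls at 1.09 and 1.32, a ratio of means of 2.20 and a log2 fold change of 0.72 (SE 0.14, 95% confidence interval 0.37 to 1.08, unadjusted p 0.0024, adjusted p 0.17). The reads behind these values were estimated at 6.64 and 3.55 in control and 11.2 and 15.0 in eKD2 libraries, so counting error alone is large. MT2A was also above its controls in both eKD2 libraries, with a ratio of means of 1.49 and a log2 fold change of 0.45 (SE 0.21, unadjusted p 0.070, adjusted p 0.43). The value hung on single libraries, being 0.20 without SK-N-MC control S1, 0.71 without SK-N-MC control S2 and 0.31 without SK-N-MC eKD2 S2. Its estimated reads were 11.9 and 8.58 in control and 16.1 and 21.9 in eKD2 libraries. Neither isoform was resolved from no change after adjustment, and over the alternative settings the adjusted p ranged from 0.10 to 0.46 for MT1X and from 0.26 to 0.79 for MT2A.

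MTF1 and SLC30A1 stood below their controls in both SK-N-MC eKD2 libraries. The share of all genes that separate in this way, above or below control, was not counted. The log2 fold change was -0.27 for MTF1 (SE 0.19, adjusted p 0.61) and -0.30 for SLC30A1 (SE 0.14, unadjusted p 0.067, adjusted p 0.42). With 1 library left out they ran from -0.35 to -0.18 and from -0.43 to -0.17. MT1F differed by about 1 read between libraries (log2 fold change 0.15, adjusted p 0.94), and MT1G was at 0 in both groups. The 6 metallothionein genes thus had higher sums, and the sensor and the exporter lower values, in SK-N-MC eKD2 libraries, and the sums were not tested.

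**Figure D4:**
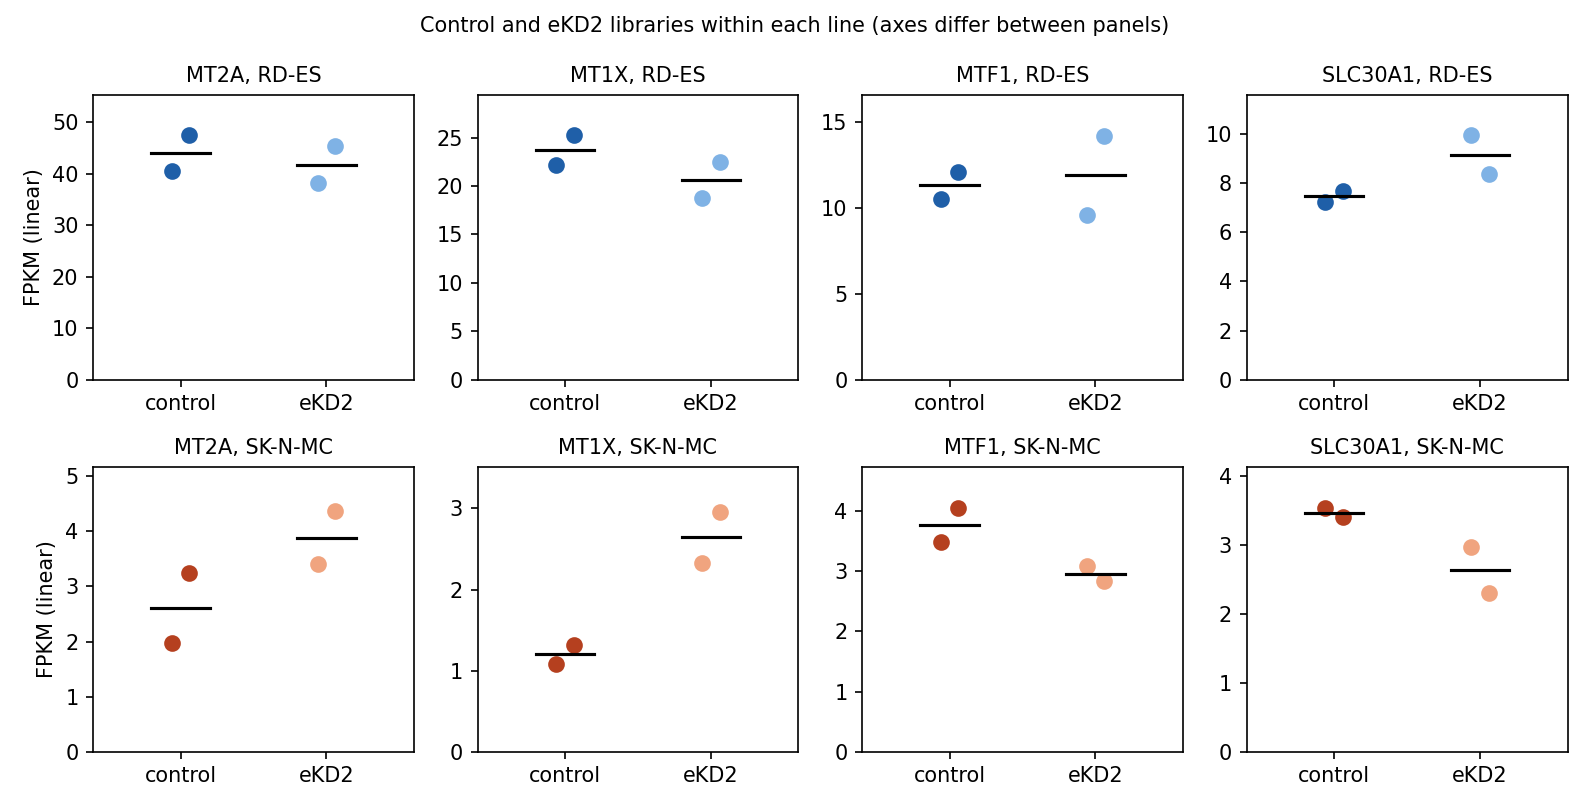
FPKM of MT2A, MT1X, MTF1 and SLC30A1 in the control and eKD2 libraries of RD-ES (upper row) and SK-N-MC (lower row), on linear axes from 0 that differ between panels, with 1 point per library and lines at the group means. The eKD2 points overlap the control points of MT2A, MT1X and MTF1 in RD-ES and stand clear of them for all 4 genes in SK-N-MC. With 2 libraries a group, full separation has a p of 0.333 in an exact permutation test. None of these changes passed the adjusted threshold, and the share of all genes that separate was not counted.

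The difference between the eKD2 effects of the lines was tested as an interaction, which asks whether the knockdown acted on a gene unequally in SK-N-MC and RD-ES. No tested gene of the 6 passed the adjusted threshold, and 0.244% of all genes did. The unadjusted p was under 0.05 for 2 of them, MT1X and SLC30A1, as for 13.5% of all genes. MT1X changed by 0.92 more on the log2 scale in SK-N-MC than in RD-ES (SE 0.20, 95% confidence interval 0.42 to 1.42, unadjusted p 0.0040, adjusted p 0.20). SLC30A1 went the other way, with a difference of -0.56 (SE 0.19, 95% confidence interval -1.03 to -0.092, unadjusted p 0.026, adjusted p 0.31), its eKD2 libraries being above control in RD-ES and below control in SK-N-MC. The difference was 0.53 for MT2A (adjusted p 0.50) and -0.31 for MTF1 (adjusted p 0.65). With 1 library left out that of MT2A ran from 0.27, without SK-N-MC control S1, to 0.78, without SK-N-MC control S2. That of MTF1 ran from -0.57, without RD-ES eKD2 S1, to -0.053, without RD-ES eKD2 S2.

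**Figure D5:**
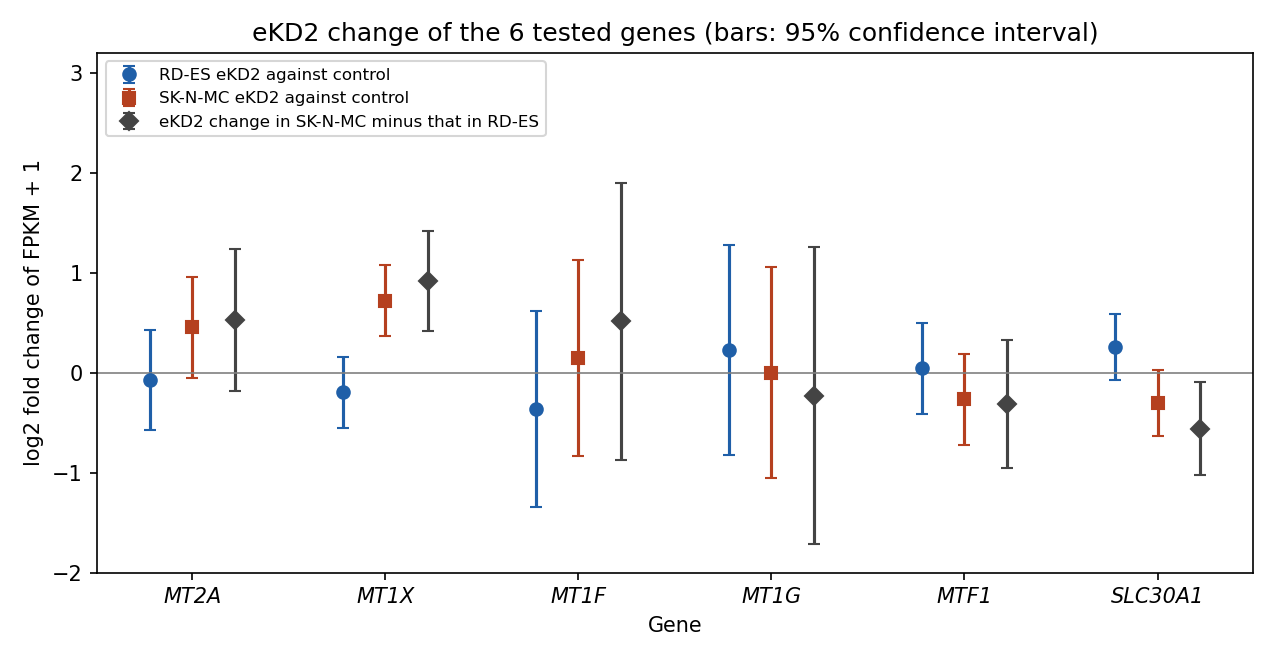
Log2 fold change of FPKM + 1 between eKD2 and control for the 6 tested genes in RD-ES (circles) and SK-N-MC (squares) and the SK-N-MC change minus the RD-ES change (diamonds), with 95% confidence intervals before adjustment. The intervals that leave out 0 are those of MT1X in SK-N-MC (0.37 to 1.08) and of the MT1X and SLC30A1 differences.

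Genes of neighboring pathways were read from lists. The SLC30 family exports zinc from the cytosol, and 6 of its 9 other members on the list were tested. None passed the adjusted or the unadjusted threshold in either eKD2 comparison, with median log2 fold changes of 0.13 in RD-ES versus -0.048 in SK-N-MC beside 0.031 and -0.0049 for all genes. The most abundant, SLC30A5, which loads zinc into the secretory pathway, was at 75.4 to 91.9 FPKM in RD-ES and at 257 to 318 in SK-N-MC libraries, a log2 difference of 1.58 between the controls (adjusted p 9.6e-05). SLC30A3, a vesicular zinc transporter, was also higher in SK-N-MC control, at 11.1 and 9.73 against 4.41 and 5.49 FPKM (log2 difference 0.94, adjusted p 0.0039). Of the 6 tested, 4 were higher and 1 was lower in SK-N-MC control. Over all genes 31.4% were called higher and 26.4% lower in this comparison, the shares beside which the counts of every list stand.

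The SLC39 family moves zinc into the cytosol, and 11 of 14 members were tested. In the eKD2 comparisons 0 passed the adjusted threshold, and the medians were 0.039 and 0.036. An unadjusted p under 0.05 was found for 1 in RD-ES (lower) and 1 in SK-N-MC (higher), beside 12.3% and 13% of all genes. The RD-ES gene was SLC39A8, an importer of zinc and manganese, at 12.5 and 17.4 FPKM in control and 10.4 and 9.64 in eKD2 libraries (log2 fold change -0.52, adjusted p 0.35). SLC39A11 had the largest difference in SK-N-MC, at 6.78 and 9.52 FPKM in control and 4.92 and 6.27 in eKD2 libraries, and missed both thresholds. Between the control lines 3 members were higher and 1 was lower in SK-N-MC. That 1 was SLC39A1, the most abundant importer, at 148 and 148 FPKM in RD-ES versus 44.5 and 44.4 in SK-N-MC control (log2 difference -1.71, adjusted p 2.6e-05).

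Metallothioneins also bind copper, and the 9 copper genes on the list were all tested. None passed the adjusted threshold in an eKD2 comparison, and the medians were 0.0032 in RD-ES versus 0.043 in SK-N-MC. With an unadjusted p under 0.05 there were 1 higher and 1 lower gene in RD-ES and 2 higher in SK-N-MC, beside 12.3% and 13% of all genes. SOD1, the copper and zinc superoxide dismutase, was at 356 and 344 FPKM in RD-ES control versus 306 and 308 in RD-ES eKD2 (log2 fold change -0.19, adjusted p 0.30). COX17, a copper chaperone of cytochrome oxidase, was at 37.2 and 32.7 FPKM in SK-N-MC control and 45.1 and 44.1 in SK-N-MC eKD2 (log2 fold change 0.35, adjusted p 0.26). ATP7B, a copper-exporting ATPase, had the largest RD-ES difference, at 2.96 and 4.93 FPKM in control and 6.07 and 4.54 in eKD2 libraries, with overlap. SOD1 was lower in SK-N-MC control, at 169 and 180 FPKM (log2 difference -0.999, adjusted p 5.7e-05), while 3 copper genes were higher.

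Of 12 genes of the heavy metal and oxidant response, all tested, 1 passed the adjusted threshold in RD-ES, beside 0.343% of all genes. SLC7A11, the cystine importer that feeds glutathione synthesis, stood at 10.9 and 11.2 FPKM in RD-ES control versus 28.5 and 22.6 in RD-ES eKD2 (log2 fold change 1.13, SE 0.12, adjusted p 0.030). The call was fragile: it held in 3 of 16 alternative settings, with adjusted p up to 0.49 when RD-ES was fitted alone. Leaving out a single library gave 0.188 without RD-ES control S1, 0.155 without RD-ES control S2, 0.05002 without RD-ES eKD2 S1, 0.157 without either SK-N-MC control library and 0.119 without either SK-N-MC eKD2 library, and the call was kept only without RD-ES eKD2 S2 (adjusted p 0.0191). In SK-N-MC, SLC7A11 was at 68.2 and 68.3 FPKM in control and 64.5 and 57.1 in eKD2 libraries, and the line difference in controls was 2.52 (adjusted p 3.0e-05).

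No other gene of that list passed in either line. With an unadjusted p under 0.05 there were 1 higher and 4 lower genes in RD-ES and 2 higher and 1 lower in SK-N-MC, and the medians were -0.017 and -0.054. NQO1, a quinone reductase of the oxidant response, was at 13.6 and 12.7 FPKM in SK-N-MC control and 21.0 and 20.7 in SK-N-MC eKD2 (log2 fold change 0.63, adjusted p 0.19). TXNRD1, a thioredoxin reductase and the most abundant gene on the list, was at 212 to 241 FPKM in RD-ES versus 165 to 178 in SK-N-MC, with eKD2 and control overlapping in both lines. Between the controls 6 of the 12 were lower and 2 were higher in SK-N-MC, beside 26.4% and 31.4% of all genes.

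The 8 glucocorticoid-responsive genes gave 0 adjusted calls in both eKD2 comparisons, with medians of 0.13 in RD-ES versus -0.16 in SK-N-MC. With an unadjusted p under 0.05 there was 1 higher in RD-ES and there were 3 lower in SK-N-MC, beside 12.3% and 13% of all genes. FKBP5, a chaperone induced by glucocorticoids, was at 27.3 and 27.9 FPKM in RD-ES control versus 30.1 and 30.7 in RD-ES eKD2, and at 26.1 and 27.1 in SK-N-MC control and 25.2 and 23.9 in SK-N-MC eKD2. SGK1, a kinase induced in the same way, was at 17.8 and 16.4 FPKM in SK-N-MC control and 14.1 and 10.5 in SK-N-MC eKD2 (log2 fold change -0.46, adjusted p 0.38). KLF9 was at 1.34 to 1.83 FPKM in RD-ES control versus 2.19 and 2.43 in RD-ES eKD2 and missed both thresholds. Between the controls 5 of the 8 were higher and 1 was lower in SK-N-MC, beside 31.4% and 26.4% of all genes.

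The genes whose levels ran most like those of MT2A across the 8 libraries, after the mean of each line was subtracted from log2(FPKM + 1), were RAC1 (Pearson's r 0.990), SLC10A3 (0.985), RPLP2 (0.982), MAGED2 (0.973) and SLC35B2 (0.972). The points share libraries and their depth, 15175 genes were searched, and the values are a description only. Among the other genes of the system, r with MT2A was 0.876 for MT1X, 0.323 for MT1F, -0.014 for MT1G, -0.030 for MTF1 and -0.718 for SLC30A1. These r values mix the eKD2 changes with differences between S1 and S2. The share of all genes with an r as high as that of MT1X or as low as that of SLC30A1 was not counted.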

How the data were processed

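RNA from 8 libraries of RD-ES and SK-N-MC cells, 2 in each of 4 groups taken from the labels, was sequenced in single-end reads of 75 bases. The authors aligned the reads to GRCh37 (hg19) with STAR and deposited FPKM values per gene and library made with Cuffnorm. The read counts behind them were not used here, and columns of the authors' own comparisons were not used. Read numbers and depths in the text are rough estimates from the whole-read steps of low FPKM values, assuming a mean fragment of 200 bases, and cover counting only.

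The tests used log2(FPKM + 1) and were limited to 15175 genes whose mean across libraries reached 1 FPKM. One limma fit (version 3.58.1, R 4.3.3) held the 4 group means, with eBayes and trend. The two-sided p-values were adjusted by Benjamini-Hochberg over all genes tested, and the threshold was 0.05. With 2 libraries a group, the smallest two-sided p of an exact permutation test is 0.333, so none was used. The fit was tested on simulated data. Genes named are the 8 of the system, LOXHD1 and ZNF10 as checks, and the 5 genes most like MT2A. Each list (other metallothioneins, SLC30, SLC39, copper handling, heavy metal and oxidant response, glucocorticoid response) adds those past the adjusted threshold for eKD2, the most abundant and the one with the largest change in each line. NLRC5 and HERPUD1, COL1A2, DCN, PTPRC and CD3E were named after their values were seen. The same holds for HSPA1A, HSPA1B, DNAJB1 and HSPH1 and for the neuroblastoma and epithelial markers. The 8 genes, the lists and the tests were chosen with earlier results of these data known. Gene positions come from GENCODE on GRCh37. The alternatives were other pseudocounts, filters, scalings and variance models, each line alone, a replicate block and leaving out each library.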

Additional observations from a re-analysis of the deposited data

Results flagged for a closer look

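For 6 of the genes named above the eKD2 change was flagged as unequal between SK-N-MC and RD-ES. The rule was an unadjusted p under 0.05 in the interaction test, or all libraries of the lines moving in opposite directions. How many of all genes met the second part of the rule was not counted. No adjusted p was under 0.05, and 13.5% of all genes had an unadjusted p that low, so these are values to look at again and not calls.

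The metallothionein MT1X had a SK-N-MC change 0.92 above that in RD-ES on the log2 scale (unadjusted p 0.0040, adjusted p 0.20). For the zinc exporter SLC30A1 the difference was -0.56 (unadjusted p 0.026, adjusted p 0.31), with eKD2 libraries above control in RD-ES and below it in SK-N-MC, without overlap. The cystine importer SLC7A11 had the largest difference, -1.30 (adjusted p 0.077), again with opposite directions in the lines, and without RD-ES eKD2 S2 its adjusted p was 0.031. The difference was 0.36 for COX17 (adjusted p 0.36) and 0.64 for NQO1 (adjusted p 0.27), each being higher in SK-N-MC eKD2 than in control and overlapping in RD-ES. FKBP5 differed by -0.25 (adjusted p 0.35), with opposite directions in the lines.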

How the results depend on the processing

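For eKD2 in RD-ES, eKD2 in SK-N-MC and their difference, 0 of the 6 tested genes passed the adjusted threshold under all alternatives run. Between the control lines the count was 6 in the main fit, where limma called 57.8% of all genes. MT1F and MT1G entered it through their RD-ES values alone and had to differ, so this count is no support in itself. MT1G hung on single libraries, with log2 differences of -2.37 to -1.33 when 1 was left out. It was not tested under the filter at 5 FPKM. Of 657 alternative values of fold changes, 620 kept direction and side of the threshold, 12 reversed, 24 lost the threshold and 1 gained it. Many settings cannot move a fold change, such as leaving out a library of the other line. MT1G in SK-N-MC eKD2 stayed at 0 throughout, so the 620 is no measure of how stable the values are. The reversals, none past the threshold, were: for RD-ES eKD2, MTF1 under median scaling (-0.021) and quantile normalization (-0.019), and, on leaving out single libraries, MT1F (-1.02 to 0.29), MT1G (-0.29 to 0.75), MT2A (-0.20 to 0.047) and MTF1 (-0.21 to 0.30), and for the difference between lines MT1F (-0.14 to 1.17) and MT1G (-0.75 to 0.29). Between the control lines SLC30A4 was past the threshold in 6 of 14 alternatives (adjusted p up to 0.099), and lost without any 1 of the 4 control libraries (0.053 to 0.093), while KLF9 was lost without SK-N-MC control S1 (0.054).

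The number of all genes called depended more on the settings. In RD-ES it was 52, and 79 without a filter, 1 with the line fitted alone and 27 to 71 with 1 library left out. In SK-N-MC it was 49, and 118 without a filter, 13 with the line alone and 12 to 76 with 1 library left out. For the difference it was 37, and 66 without a filter, 24 with a filter at 5 FPKM and 54 to 81 with 1 library left out, and the cause was not tested. With the replicate block these counts were 11, 5 and 7. Over all genes tested, the deviations of libraries from their group means were hardly correlated between groups (r -0.021 to 0.064). Such an r cannot show whether some genes share a batch, and S2 was above S1 in every group for MT2A and MT1X. The labels name no pairing, so the block stayed an alternative. With it, MT2A in SK-N-MC eKD2 had a log2 fold change of 0.45 and an SE of 0.092 (limma, unadjusted p 0.0086, adjusted p 0.26). Summing rows per symbol was not run, since no gene of the system had more than 1 row. Depth limits MT1E, MT1M and, in SK-N-MC, all metallothioneins, at an estimated 21.9 reads or fewer per library.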

Other observations

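In all 4 groups S2 was above S1 for both MT2A and MT1X, by 0.23, 0.24, 0.51 and 0.29 on the log2 scale for MT2A and by 0.18, 0.24, 0.15 and 0.25 for MT1X, in the order RD-ES control, RD-ES eKD2, SK-N-MC control and SK-N-MC eKD2. Among genes at 10 FPKM or more, the median of the same difference was 0.091, 0.033, 0.027 and 0.098 over 93 genes with a longest transcript of 200 to 600 bases, and 0.026, -0.0021, 0.025 and 0.028 over 8373 genes with a longer one.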
